A study of Rattus norvegicus with 8 samples.

Results

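The data were 3′ end counts from 8 hypothalami, each of an adult male Long-Evans rat, and the genes described here are 10 genes of endoplasmic reticulum (ER) stress and ER protein folding, taken from the table by their symbols: Atf6, Xbp1, Atf4, Ddit3, Hspa5, Hsp90b1, Calr, Canx, Pdia3 and Pdia4. Of these, 9 had at least 1 polyadenylation site in the table, with 54 sites of the 73922 listed, and Pdia4 was not analysed here. The control group (n = 4) was kept on standard chow with 0.51 kcal/g from fat, and the obesity group (n = 4) was fed a high fat diet with 1.71 kcal/g from fat, each for 36 days. All rats were of the same strain and sex, no age beyond adult was given, and the diet-induced obesity of the labels comes with no body weight. Whole transcriptome termini site sequencing (WTTS-seq) counts reads at the 3′ ends of polyadenylated RNA, so that a gene with several polyadenylation sites has several rows. Since a transcript gives a tag at its end whatever its length, levels were compared between genes as CPM, counts scaled to the library total after its adjustment by TMM (trimmed mean of M values) in edgeR.

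The ER lumen is where secreted and membrane proteins fold, with the help of chaperones and of enzymes that form disulfide bonds. When unfolded proteins build up, 3 branches of the unfolded protein response are known to act: ATF6 is cut in the Golgi to release a transcription factor, IRE1 splices Xbp1 mRNA, and PERK slows translation while it favours ATF4, which can induce Ddit3 (CHOP). Their targets include the lumenal chaperones Hspa5 (BiP) and Hsp90b1 (GRP94). The lectin chaperones Calr (calreticulin) and Canx (calnexin) hold glycoproteins in the folding cycle together with the disulfide isomerase Pdia3 (ERp57), and Pdia4 (ERp72) is a related isomerase. In the hypothalamus, ER stress is known for its links with leptin signalling and diet.

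The ER stress response element (ERSE), CCAAT and CCACG with 9 bases of any kind between them, is known as the element through which NF-Y, at its CCAAT part, and ATF6 or XBP1, at its CCACG part, act on chaperone genes. RefSeq promoters of the GRCr8 build, from 250 bases before to 50 bases after the gene start, were searched on both strands. A promoter was found in the table for 8 of the 10 genes, Pdia4 included, and not for Atf6 or Pdia3. The full ERSE was found in 5 of these 8 promoters and in 22 of 33469 promoters (0.0657%) in all. Among the other pathway genes named below, 2 of 56 promoters held it, those of Dnajc3 and Ero1b. Since the element is known from chaperone genes, these counts are a description and no test. The matches are shown because they are what the promoters of the 4 chaperone genes and Xbp1 had in common, and the capitals mark the CCAAT and CCACG parts, read 5′ to 3′ along the strand that holds them.
Hspa5 (chr3:38452973-38452991, 43 to 25 bases before the start, plus-strand gene, same strand): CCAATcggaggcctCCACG
Hsp90b1, first match (chr7:23012451-23012469, 176 to 158 bases before the start, minus-strand gene, same strand): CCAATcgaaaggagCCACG
Hsp90b1, second match (chr7:23012347-23012365, 72 to 54 bases before the start, opposite strand): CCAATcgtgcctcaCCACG
Calr (chr19:40213135-40213153, 232 to 214 bases before the start, plus-strand gene on GRCr8, opposite strand): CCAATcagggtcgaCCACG
Canx (chr10:35158069-35158087, 230 to 212 bases before the start, minus-strand gene, same strand): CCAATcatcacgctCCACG
Xbp1 (chr14:84604558-84604576, 65 to 47 bases before the start, plus-strand gene, same strand): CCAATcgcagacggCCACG

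No full ERSE was found in the promoters of Atf4, Ddit3 or Pdia4. The CCAAT letters alone were in 7 of the 8 promoters, against 37.5% of all promoters, and CCACG alone in all 8, against 31.6%; both are contained in an ERSE match. The related element ERSE-II, ATTGG and CCACG with 1 base of any kind between them, which may overlap a CCAAT match on the other strand, was in 0 of the 8 promoters and in 0.0508% of all. TGATG followed by any base and AA, the letters of an element that ATF4 can bind, was in 0 of the 8 and in 3.98% of all. These are letter matches in a fixed window, and binding was not measured.

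Libraries held 1417531 to 1957726 reads. Control 1 and obesity 1 stood apart, with 14788 and 10659 of the 73922 sites at 0 reads against 4062 to 6622 in the other libraries. Libraries that carry the same number in both groups deviated together from their group means, with correlations of 0.36 to 0.51 across sites, against −0.26 to −0.02 between different numbers. Deviations from a group mean sum to 0 within the group, so positive same-number values push the others below 0. What same-numbered libraries share is not given in the labels, and each comparison is therefore given without and, where it bears on the result, with the number as a block. Of 10 hypothalamic marker genes, all 10 had sites and 8 were detected in every library, with summed levels of 1061 to 1509 CPM in control and 838 to 1182 CPM in obesity. All 8 oligodendrocyte markers were detected in every library, and their summed level was 17090 to 23060 CPM in control and 12840 to 20520 CPM in obesity. The 7 astrocyte markers, again all detected in every library, summed to 1900 to 2698 and 1486 to 2127 CPM, and 3 of 6 microglial markers, the others having no site, summed to 72.5 to 119 and 28.9 to 88.8 CPM. Endothelial markers (3 of 4 with sites) summed to 42.4 to 78.1 and 38.9 to 106 CPM, and red blood cell markers (3 of 4) to 41.7 to 62.9 and 20.3 to 91.2 CPM. Anterior pituitary markers (3 of 5, none in every library) summed to 18.2 to 55.6 and 6.13 to 124 CPM, the highest in obesity 2, which also had the lowest Atf6 and Hspa5 gene sums, and the choroid plexus marker Ttr was at 0 to 1.52 CPM but for 98.0 CPM in obesity 4. In every same-numbered pair the hypothalamic sum was lower in obesity, at 838, 1022, 1182 and 958 CPM against 1061, 1163, 1379 and 1509 CPM in control. The microglial sum was also lower in every pair, and none of the other sums was. The hypothalamic markers did not move as a class. At an unadjusted p under 0.05 in edgeR, 2 of the 10 were lower in obesity and 2 were higher. The lower hypothalamic sum therefore does not give the direction of its single genes. The part of cell makeup in the differences below was not tested. In bulk tissue, fewer cells of a type and less RNA per cell cannot be told apart.

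Together the 54 sites took 23602 reads, 0.177% of all reads. Of these sites, 51 were on the strand that carried most of the gene's reads, and 26 passed edgeR's filter on low counts. Gene sums were made over the sites on that strand and expressed as CPM of the reads in gene sums. Across the 8 libraries the order of mean levels was Hsp90b1 (1001 CPM, rank 104 of 12255 genes), Calr (358 CPM), Canx (323 CPM), Hspa5 (164 CPM, rank 1067), Xbp1 (70.9 CPM), Atf4 (59.1 CPM), Pdia3 (48.2 CPM), Ddit3 (38.2 CPM) and Atf6 (23.4 CPM, rank 5636). Hsp90b1 was above Calr in every library, at 699 to 1737 CPM. The next neighbours overlapped over libraries: Calr ran from 260 to 487 CPM and Canx from 124 to 622 CPM, and the ranges of Canx, Hspa5, Xbp1, Atf4, Pdia3, Ddit3 and Atf6 each overlapped the next in order. The chaperones thus took the upper places, and the transcription factors and Pdia3 the lower ones.

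**Figure D1:**
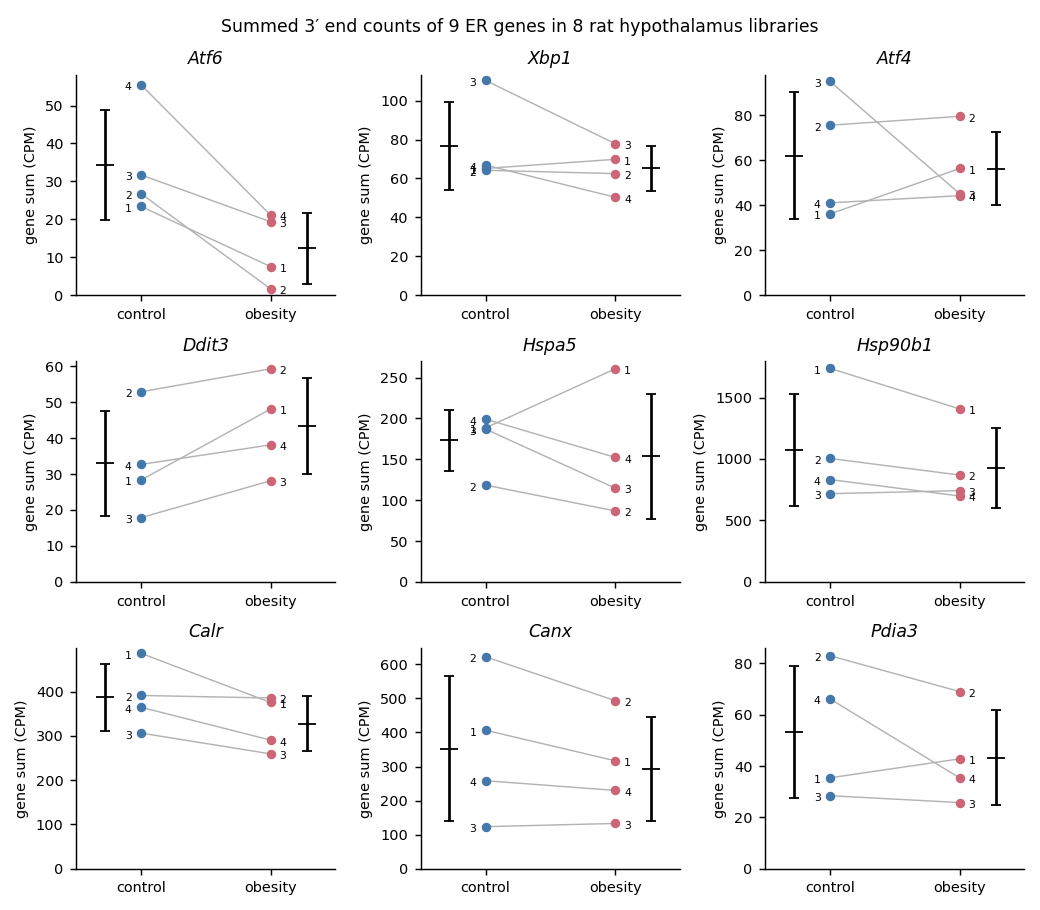
Gene sums in CPM (vertical axes, from 0) for 9 ER genes in the 4 control (blue) and 4 obesity (red) libraries. Digits are library numbers, grey lines join libraries of the same number, and black bars are the mean ± SD. Only for Atf6 do the groups not overlap, with control at 23.4 to 55.5 CPM and obesity at 1.62 to 21.1 CPM.

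At the level of gene sums, 8 of the 9 genes had a lower mean in obesity, and Ddit3 had a higher one, but no gene passed an adjusted p of 0.1 in edgeR's quasi-likelihood test over all 12255 genes. The background was 0.0% of genes called without the block and 0.277% with it, and 0 of the 9 were called in either fit. At an unadjusted p of 0.05 the count was 1 of 9 (Atf6), against 5.12% of all genes; with the block it was again 1, against 10.9%. DESeq2 called 0 of the 9, at a background of 0.0327%, and put 1 under that unadjusted p. The median log2 fold change was −0.23 over the 9 genes and 0.00 over all genes, of which 49.9% were below 0. The same 8 genes lay below 0 with DESeq2's size factors and with the DESeq2 test, while leaving out single libraries turned Xbp1, Atf4, Hspa5, Hsp90b1 and Canx above 0.

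Among the regulators, Atf6, the membrane-bound sensor, differed most. Its summed reads were 33, 40, 39 and 73 in control 1 to 4 and 10, 2, 33 and 31 in obesity 1 to 4. The level was 34.3 ± 14.5 CPM in control and 12.4 ± 9.38 CPM in obesity (SD, n = 4), lower in obesity in 4 of 4 same-numbered pairs. The groups did not overlap, as for 3.45% of all genes. Earlier results of Atf6 in these data were known when the genes were chosen, so this share is a description and no test. The log2 fold change was −1.44 (SE 0.54; edgeR unadjusted p = 0.0172, adjusted p = 0.921). With the number as a block it was −1.63 (SE 0.43, adjusted p = 0.132). Without both libraries numbered 1 the blocked value was −1.61, with an adjusted p of 0.0734, in a fit that called 65 of all 12255 genes. With all libraries the block called 34. Without control 4 the unadjusted p was no longer under 0.05, and log2 fold changes over single libraries left out ran from −1.79 to −1.09.

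Xbp1, whose spliced mRNA encodes a transcription factor, had 92, 96, 136 and 88 reads in control and 93, 77, 133 and 74 in obesity. Its level was 76.7 ± 22.6 CPM in control and 65.2 ± 11.7 CPM in obesity, and the log2 fold change was −0.23 (SE 0.27, adjusted p = 0.973 in edgeR). Control 3 was high and the groups overlapped, and without control 3 the log2 fold change was 0.00055. With all libraries and the number as a block it was −0.22 (SE 0.225, adjusted p = 0.805 in edgeR). The 3′ end counts do not tell spliced from unspliced Xbp1 mRNA.

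Atf4, the effector of the PERK branch, had 51, 113, 117 and 54 reads in control and 75, 98, 77 and 65 in obesity, or 62.0 ± 28.2 and 56.3 ± 16.4 CPM. Its log2 fold change was −0.14 (SE 0.33, adjusted p = 0.990 in edgeR), and only 1 of 4 pairs was lower in obesity, so the mean and the pairs pointed apart. Under the block its log2 fold change was −0.077 (SE 0.27, adjusted p = 0.957 in edgeR). Ddit3, which encodes the stress transcription factor CHOP, had 40, 79, 22 and 43 reads in control and 64, 73, 48 and 56 in obesity. It was at 32.9 ± 14.7 and 43.4 ± 13.3 CPM, and the fold change on the log2 scale was 0.39 (SE 0.36, adjusted p = 0.961 in edgeR). Its groups overlapped, yet every pair was higher in obesity, which held for 8.97% of all genes. The blocked log2 fold change of Ddit3 was 0.44 (SE 0.29, adjusted p = 0.628 in edgeR).

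Hspa5, the chaperone BiP that binds the stress sensors, had 266, 177, 230 and 262 reads in control and 347, 107, 196 and 224 in obesity. Levels were 173 ± 36.9 and 154 ± 76.2 CPM, and the log2 fold change was −0.17 (SE 0.30, adjusted p = 0.983 in edgeR). With the number as a block the log2 fold change was −0.26 (SE 0.19, adjusted p = 0.679 in edgeR). The obesity group held both the highest library, obesity 1 at 261 CPM, and the lowest, obesity 2 at 86.8 CPM.

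Hsp90b1, the most abundant of the 9, had 2452, 1501, 883 and 1095 reads in control and 1873, 1071, 1267 and 1027 in obesity. The levels of 1073 ± 458 and 929 ± 326 CPM gave a difference of −0.21 on the log2 scale (SE 0.28, adjusted p = 0.982 in edgeR). In both groups library 1 was the highest, and the SE was 0.13 with the number as a block.

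Calr, the soluble lectin chaperone, had 687, 585, 377 and 480 reads in control and 500, 475, 443 and 427 in obesity. It was at 387 ± 75.1 and 328 ± 62.4 CPM, with a difference of −0.24 on the log2 scale (SE 0.21, adjusted p = 0.953 in edgeR), overlapping groups and a lower value in obesity in 4 of 4 pairs. Together with Atf6 this made 2 of 9 genes that were lower in every pair, which held for 9.94% of all genes. The blocked log2 fold change of Calr was −0.24 (SE 0.14, adjusted p = 0.569 in edgeR).

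Canx, its membrane-bound counterpart, had 574, 930, 152 and 340 reads in control and 422, 608, 227 and 338 in obesity. Its levels were 353 ± 214 and 293 ± 153 CPM, and its log2 fold change was −0.27 (SE 0.50, adjusted p = 0.984 in edgeR). Library 2 was the highest and library 3 the lowest in each group, and the SE was 0.15 with the block, at a log2 fold change of −0.20. Pdia3, the isomerase that partners both lectins, had 50, 124, 35 and 87 reads in control and 57, 85, 44 and 52 in obesity, or 53.2 ± 25.7 and 43.2 ± 18.5 CPM. Its log2 fold change was −0.31 (SE 0.38, adjusted p = 0.980 in edgeR), again with overlapping groups. With the block its log2 fold change was −0.27 (SE 0.27, adjusted p = 0.795 in edgeR).

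**Figure D2:**
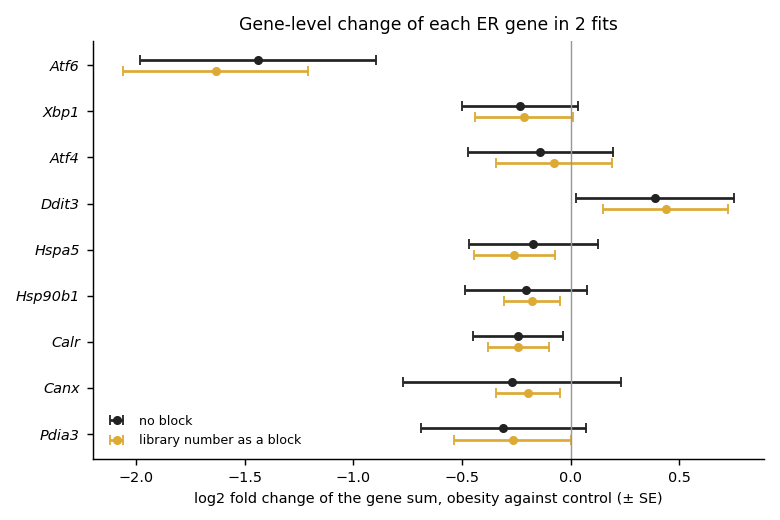
Log2 fold change of each gene sum, obesity against control, with its SE, without a block (black) and with the library number as a block (yellow). Every gene but Ddit3 lies below 0, Atf6 lies farthest from 0 at −1.44 and −1.63, and the SE of Canx is 0.50 without the block and 0.15 with it.

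Site by site, 0 of the 54 sites were called by edgeR, without or with the block, at backgrounds of 0.00135% and 0.00541% of all sites. DESeq2 called 1, the most 3′ site of Atf6, at a background of 0.038% of the 26286 sites it gave an adjusted p. At an unadjusted p of 0.05 there were 3 sites (5.56%), against 3.14% of all sites, and the same 3 were the ones whose groups did not overlap, against 3.11% of all sites. They lay in Atf6, Calr and Hspa5. Earlier results of Atf6 and Calr in these data were known when the genes were chosen. With the block 4 sites were under 0.05, against 6.09% of all sites, of which 2 lay in Calr and the others in Atf6 and Canx.

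Atf6 had 3 sites on the minus strand of chromosome 13 (Rnor_6.0). The most 3′ site, at chr13:89055762-89055764, had 26, 30, 20 and 32 reads in control and 4, 2, 5 and 3 in obesity. All 4 obesity libraries were below all 4 control libraries, at 1.97 ± 0.525 against 16.9 ± 3.04 CPM, here of all site reads. The log2 fold change was −3.04 (SE 0.55; edgeR unadjusted p = 6.14e-05, adjusted p = 0.9999), with an adjusted p of 0.119 under the block and of 0.0125 in DESeq2. Leaving out each library in turn gave −3.19 to −2.92. With the block and without both libraries of a number it was −3.18 without number 1 (adjusted p = 0.199) and −2.90 without number 2 (adjusted p = 0.0594, a call at 0.1). Without number 3 it was −3.24 (adjusted p = 0.133) and without number 4 −2.86 (adjusted p = 0.329). The fit without number 2 called 366 of all 73922 sites, against 4 in the blocked fit with all libraries.

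The middle Atf6 site, chr13:89058519-89058531, 2758 bases before the most 3′ one, took 39.1% of the gene's reads with 0, 6, 17 and 34 in control and 0, 0, 18 and 27 in obesity. It varied with the library number, with no read in either library numbered 1. The first site, at chr13:89226044-89226056 and 170292 bases before the most 3′ one, had 7, 4, 2 and 7 reads in control and 6, 0, 10 and 1 in obesity. Summed, the first and middle sites were at 12.7 ± 10.5 CPM in control and 8.32 ± 7.79 CPM in obesity, with overlapping groups. The lower Atf6 gene sum thus lay mostly at the most 3′ site.

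As a share of the Atf6 reads, the most 3′ site took 78.8, 75.0, 51.3 and 43.8% in control and 40.0, 100, 15.2 and 9.68% in obesity, the 100% resting on 2 reads. The share was 62.2% ± 17.3 and 41.2% ± 41.4 (SD, n = 4), and the usage test of edgeR (diffSpliceDGE) gave a Simes p of 0.286 for the gene (adjusted p = 1.0). With the block the gene's Simes p was 0.115 (adjusted p = 1.0), and the unadjusted usage p of the most 3′ site was 0.0955 without and 0.0382 with the block. The whole gene had 2 reads in obesity 2 and 10 in obesity 1, and what usage change this depth would show was not tested.

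Calr had 4 sites on the minus strand of chromosome 19 and 2 sites given to its symbol on the plus strand. The main site, chr19:25957368-25957473, took 74.1% of the minus-strand reads, with 542, 494, 241 and 363 reads in control and 340, 356, 288 and 319 in obesity. The next site, chr19:25957238-25957356, followed it after a gap of 11 bases and had 18, 6, 10 and 25 reads in control and 101, 39, 36 and 43 in obesity. All obesity libraries were above all control libraries there, with obesity 1 the highest. Its level was 9.35 ± 5.48 CPM in control and 31.6 ± 17.4 CPM in obesity, a log2 fold change of 1.75 (SE 0.54; edgeR unadjusted p = 0.00552, adjusted p = 0.9999). With the block the unadjusted p was 0.00033 and the adjusted p 0.26, and the log2 fold change without obesity 1 was 1.29.

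The share of Calr reads on the minus strand at that site was 2.62, 1.03, 2.65 and 5.21% in control and 20.2, 8.21, 8.13 and 10.1% in obesity, or 2.88% ± 1.73 and 11.7% ± 5.77. The main site took 75.7% ± 8.67 and 70.7% ± 4.96, and the most 3′ site, chr19:25956769-25956773, took 20.3% ± 7.19 and 16.3% ± 6.49. The usage test gave Calr a Simes p of 0.0115 (adjusted p = 1.0), and 0.00101 (adjusted p = 0.658) with the block. No gene of the 9 was called for usage, at a background of 0.0121% in either fit. Calr was the only 1 under an unadjusted 0.05, against 1.84% of 8276 genes tested without and 3.08% with the block. Earlier results of Calr in these data were known when the genes were chosen, so these shares are a description and no test. Without control 2 or obesity 1 the Calr p was 0.0866 and 0.123. Summed, the main site and its close neighbour were at 261 ± 56.5 CPM in control and 222 ± 48.8 CPM in obesity. These SDs are larger than the neighbour's own levels, so the sum could not show its higher count.

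The most 3′ Calr site had 127, 84, 116 and 85 reads in control and 52, 74, 113 and 59 in obesity, a log2 fold change of −0.61 (SE 0.36). The groups overlapped, and with the block its unadjusted p was 0.0388 (edgeR adjusted p = 0.785). The first site, chr19:25959393-25959417, had 0 to 10 reads a library. Of the plus-strand sites, chr19:25957207-25957216 had 36, 41, 16 and 35 reads in control and 33, 18, 89 and 40 in obesity, and chr19:25957128-25957138 had 0 to 12. Whether the plus-strand reads belong to Calr was not tested, and with sites of the main strand alone the Simes p was 0.00572.

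**Figure D3:**
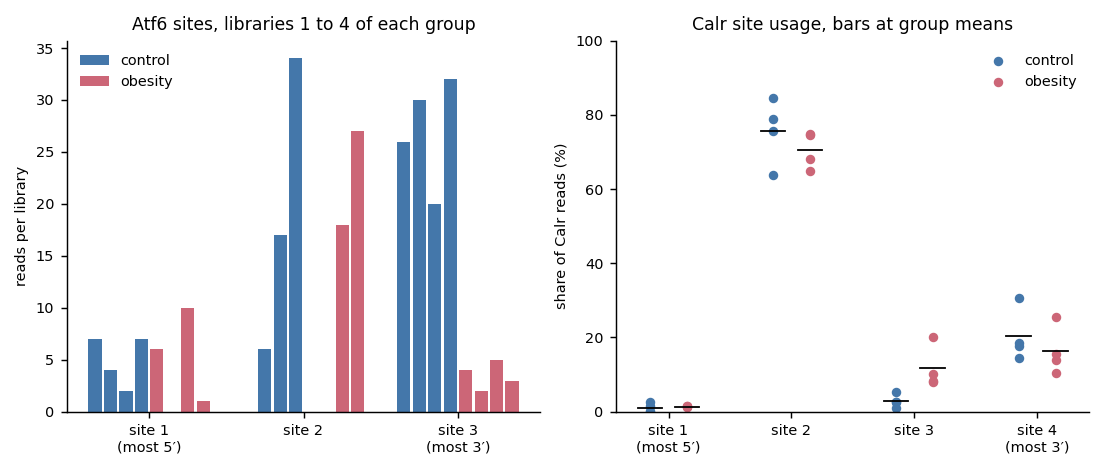
Left, reads at the 3 Atf6 sites in each library (bars, control 1 to 4 then obesity 1 to 4 at each site). Right, share of minus-strand Calr reads at each of its 4 sites (points, libraries; lines, group means; %). At the most 3′ Atf6 site control has 20 to 32 reads and obesity 2 to 5, and at Calr site 3 the share is 1.03 to 5.21% in control and 8.13 to 20.2% in obesity.

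Hspa5 had 6 sites on the plus strand of chromosome 3. Site 3, chr3:13842265-13842282, had 0, 3, 2 and 2 reads in control and 20, 6, 6 and 8 in obesity. The groups did not overlap, although the highest control and the lowest obesity library were 3 reads apart. The site did not pass edgeR's filter on low counts. Levels were 1.13 ± 0.771 and 5.75 ± 3.77 CPM, with a log2 fold change of 2.29 (SE 0.97; edgeR unadjusted p = 0.0334, adjusted p = 0.9999), and the unadjusted p reached 0.131 when single libraries were left out. The site took 0.832% ± 0.693 of Hspa5 reads in control and 4.50% ± 1.39 in obesity, and a gap of 24 bases separated it from site 2. Together sites 2 and 3 were at 29.8 ± 9.01 and 25.1 ± 11.7 CPM.

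Most Hspa5 reads came from the first site, chr3:13840245-13840286, and the last, chr3:13842668-13842700, 2406 bases apart. The first had 110, 55, 74 and 119 reads in control and 145, 27, 69 and 82 in obesity, and the last 76, 52, 69 and 74 and 80, 27, 70 and 69. Obesity 2 was the lowest library at both sites, and the groups overlapped at both.

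Hsp90b1 had 10 sites over 13866 bases of the minus strand of chromosome 7. The main site, chr7:27227354-27227401, had 2141, 952, 344 and 550 reads in control and 1714, 639, 501 and 471 in obesity. The fourth site, chr7:27233594-27233629, had 18, 285, 341 and 351 in control and 40, 248, 478 and 352 in obesity. Here the values varied with the library number: the fourth site took 0.734, 19.0, 38.6 and 32.0% of the gene's reads in control 1 to 4 and 2.14, 23.2, 37.7 and 34.3% in obesity 1 to 4. The main site mirrored it, at 87.3% in control 1 and 91.5% in obesity 1 but 39.0 and 39.5% in the libraries numbered 3. The sixth site, chr7:27229690-27229759, had the smallest group p of the gene, with 222, 191, 140 and 126 reads in control and 80, 131, 219 and 130 in obesity (log2 fold change −0.40, SE 0.34; edgeR unadjusted p = 0.258).

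Canx had 12 sites over 24195 bases of the minus strand of chromosome 10, most reads (74.4%) at chr10:35805226-35805297, 4283 bases before the most 3′ site. That site had 413, 806, 73 and 242 reads in control and 294, 488, 100 and 257 in obesity, and in each group library 2 was the highest and library 3 the lowest. The site with the smallest group p, chr10:35801891-35801909, had 30, 18, 4 and 18 reads in control and 7, 14, 0 and 6 in obesity. Its log2 fold change was −1.33 (SE 0.86; edgeR unadjusted p = 0.144), and −1.59 with the block (unadjusted p = 0.0281, adjusted p = 0.750).

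Pdia3 had 6 sites on the plus strand of chromosome 3 and 1 on the minus strand. Its main site, chr3:113400367-113400405, had 4, 50, 4 and 49 reads in control and 6, 21, 3 and 34 in obesity. The even-numbered libraries were high and the odd-numbered low in each group, at 24.7 to 65.4% against 6.82 to 11.4% of the gene's reads. Its site with the smallest group p, chr3:113386979-113386985, had 14, 3, 4 and 5 reads in control and 5, 4, 2 and 0 in obesity (log2 fold change −1.25, SE 1.05; edgeR unadjusted p = 0.254).

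The dependence on library number was tested after the data were seen, as the joint effect of the numbers in the blocked edgeR fit. Of the 9 genes, 4 differed between numbers at an adjusted p under 0.1, against 10.7% of all genes: Canx (adjusted p = 1.2e-06), Hsp90b1 (0.000275), Hspa5 (0.0317) and Pdia3 (0.0631). Of the 54 sites, 9 did (16.7%), against 8.66% of all sites, in Atf6, Hspa5, Hsp90b1, Canx and Pdia3. The smallest adjusted p-values were 3.39e-07 at the fourth and 6.69e-06 at the main Hsp90b1 site and 3.42e-06 at the main Canx site. The middle Atf6 site had an adjusted p of 0.00197 for the number, whereas the most 3′ Atf6 site had 0.997.

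**Figure D4:**
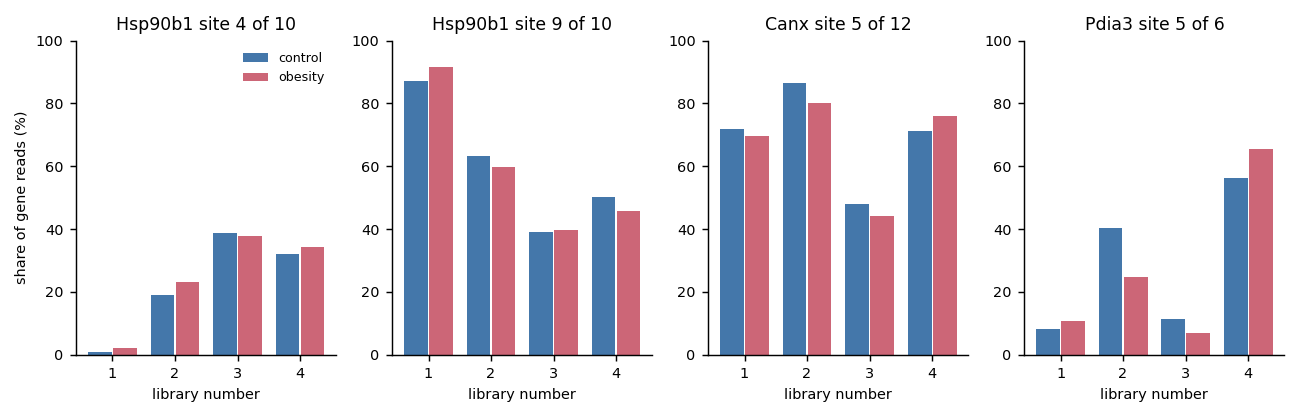
Share of the gene's reads (%, from 0) at 4 sites by library number, control in blue and obesity in red. Same-numbered libraries lie close together at the Hsp90b1 and Canx sites while the numbers differ, from 0.734 to 38.6% at Hsp90b1 site 4 in control. At Pdia3 site 5 they lie less close, with number 2 at 40.3% in control and 24.7% in obesity.

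The other genes had fewer sites. Xbp1 had 2 on the plus strand of chromosome 14, of which chr14:85758775-85758810 held 85, 89, 135 and 79 reads in control and 86, 71, 129 and 73 in obesity. Atf4 had 3 on the plus strand of chromosome 7, and its last and main site, chr7:121482745-121482788, had 22, 65, 84 and 37 in control and 55, 62, 51 and 49 in obesity. The smallest Atf4 site p belonged to chr7:121481751-121481760, at 0 to 10 reads a library (edgeR unadjusted p = 0.311). Ddit3 had 5 on the plus strand of chromosome 7, the main one, chr7:70584663-70584693, with 17, 41, 15 and 19 reads in control and 6, 28, 16 and 31 in obesity. Its first site, chr7:70581370-70581394, had 6, 1, 2 and 1 in control and 14, 0, 8 and 7 in obesity (log2 fold change 1.34, SE 1.11; edgeR unadjusted p = 0.245). At each of these sites the groups overlapped.

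**Figure D5:**
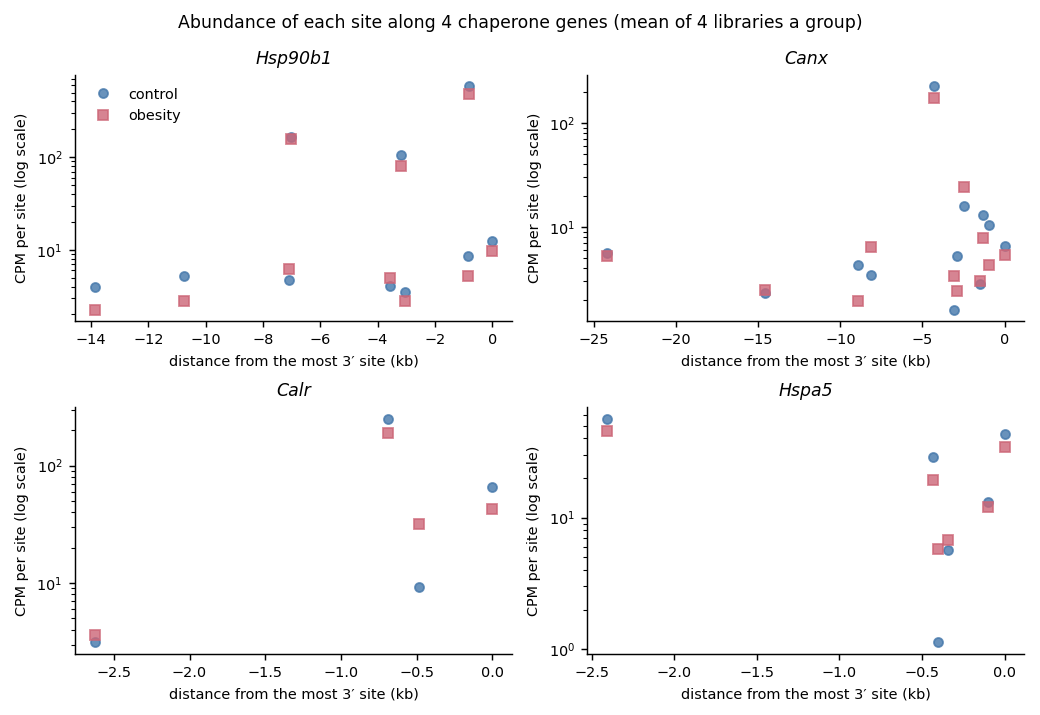
Mean CPM of each site (log scale; 4 libraries a group) against its distance from the most 3′ site of the gene (kb) for Hsp90b1, Canx, Calr and Hspa5. In each gene the most used site lies upstream of the most 3′ one, by 811 bases in Hsp90b1, 4283 in Canx, 691 in Calr and 2406 in Hspa5, and the group means part most at Calr site 3 and Hspa5 site 3. Hspa5 site 3 has 0 to 20 reads a library and did not pass the low-count filter.

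Since Hspa5 is the usual reference target of the unfolded protein response, its gene sum was correlated with those of the other 8 genes over the 8 libraries, as log2(CPM + 1). Pearson's r ran from −0.37 for Ddit3 to 0.43 for Atf6 and 0.42 for Hsp90b1, with exact permutation p-values of 0.291 to 0.663, all 0.663 after adjustment over the 8 relations. Spearman's rho ran from −0.40 to 0.38, with adjusted exact permutation p-values of 0.860 to 0.977. The permutations treated the 8 libraries as independent, although same-numbered libraries deviated together. Without obesity 1 and obesity 2, the libraries farthest from the median of Hspa5, r was −0.51 for Ddit3, 0.61 for Atf6 and 0.23 for Hsp90b1. An r as high as that of Atf6 was reached by 15.95% of all genes, and no relation with Hspa5 passed its test.

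Among other genes of the same pathways, no gene passed an adjusted p of 0.1 in edgeR, without or with the block; at an unadjusted p of 0.05 the backgrounds were 2.58% of all genes for lower and 2.54% for higher, and 6.16% and 4.76% with the block. Of 15 sensors and regulators, 14 had sites, none at an unadjusted p of 0.05 in either direction, with a median log2 fold change of 0.09 beside 0.00 for all genes. By unadjusted p, the phosphatase subunit Ppp1r15b (11.3 ± 6.91 CPM in control, 18.7 ± 13.3 in obesity) and Creb3 came first among those with a higher mean, and Nfe2l2 and Atf6b, the paralogue of Atf6 (125 ± 32.3 and 115 ± 21.3 CPM), among those with a lower one. Of 32 chaperones, folding enzymes and retrieval receptors, 26 had sites and none was under 0.05, with a median of 0.04. The KDEL receptor Kdelr1, which returns lumenal proteins from the Golgi, was at 30.0 ± 4.87 and 42.6 ± 11.3 CPM (edgeR adjusted p = 0.928) and Creld1 at 14.4 ± 5.28 and 24.2 ± 10.5 CPM. The prolyl isomerase Fkbp2 was at 94.1 ± 15.2 and 63.8 ± 23.4 CPM (edgeR adjusted p = 0.921) and Dnajb11, a BiP co-chaperone, at 28.01 ± 6.08 and 16.9 ± 7.51 CPM. Of these 26, Fkbp2, Dnajb11, Dnajb2 and Erp44 were lower in 4 of 4 pairs, against 9.94% of all genes. Higher in 4 of 4 were Kdelr1 and Erp29 of the 26, and Ppp1r15b and Eif2ak3 of the 14 regulators, against 8.97% of all genes. Eif2ak3 was named after its values were seen. With the block 2 genes of the chaperone list had a higher and 3 a lower level at an unadjusted p of 0.05: Erp29 and Hyou1, and Fkbp2, Dnajb2 and Erp44, those other than Fkbp2 being named after their values were seen.

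Of 20 genes of ER-associated degradation and translocation, 16 had sites, none under 0.05 without the block and 1, Vcp, lower with it (unadjusted p = 0.00861, edgeR adjusted p = 0.275), with a median of −0.20. Vcp, the ATPase that extracts proteins from the ER membrane, was at 366 ± 97.1 and 268 ± 43.2 CPM, and Vimp at 19.9 ± 5.86 and 10.6 ± 6.71 CPM. Derl2 and Os9 had higher means, the latter at 230 ± 108 and 251 ± 150 CPM with overlapping groups. Of 21 amino acid and stress genes known as ATF4 targets, 14 had sites, 11 of them with a log2 fold change below 0, and the median was −0.36. Without the block only Nars, the asparaginyl-tRNA synthetase, was under 0.05, with 163, 192, 185 and 199 reads in control and 122, 129, 179 and 133 in obesity (log2 fold change −0.48, SE 0.21; edgeR unadjusted p = 0.0372, adjusted p = 0.921). With the block 3 of the 14 had a lower level at an unadjusted p under 0.05, Nars (0.0165), Shmt2 (0.0170, named after its values were seen) and Psat1 (0.0180), with edgeR adjusted p-values of 0.331, 0.331 and 0.334. Nars, Psat1, of serine synthesis (16.3 ± 7.67 and 6.67 ± 4.91 CPM), and the mitochondrial Shmt2, of glycine synthesis (14.6 ± 6.35 and 5.96 ± 4.62 CPM), were lower in 4 of 4 pairs. So was Cebpg, of the same 14 and named after its values were seen. Vimp, of the 16 degradation genes, was too, and the share of all genes was 9.94%. Ddit4 (14.3 ± 3.597 and 15.7 ± 4.58 CPM) and the amino acid transporter chain Slc3a2 (32.9 ± 28.3 and 38.4 ± 30.7 CPM) had higher means within the spread.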

How the data were processed

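WTTS-seq libraries of 8 rat hypothalami were analysed. Per the labels, reads were mapped to Rnor_6.0, and the submitters' processing notes name Bowtie2 2.2.3; the tool for calling sites was not given in the sources used here. The deposited table gives each site's raw count of reads, not normalized, with at least 30 reads per site in total. The line without a site was left out, and 65913 sites (89.2%) had a gene. Columns of the authors' own comparisons were not used. No site was assigned to an exon, intron or UTR, and those beside A-rich sequence were not removed, since no genome of the build was used here.

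Site counts and gene sums (12255 genes, major strand) were tested with edgeR 4.0.16 (robust quasi-likelihood fit, TMM, Benjamini-Hochberg over the whole table) in R 4.3.3, and usage with diffSpliceDGE. Calls were at adjusted p under 0.1. Labels give both groups the numbers 1 to 4, and all 4 same-number correlations were over 0.1 (0.36 to 0.51, from deviations of log2(CPM + 1) from the group means at sites of at least 80 reads), which was read as pairing of the libraries by number. Alternatives were a number block, DESeq2 1.42.0, its size factors, a low-count filter, other strand rules, plain library totals, a pseudocount of 5 CPM, single libraries left out, and, added after seeing the data, both libraries of a number left out. Tests ran first on simulated data. For each gene the site with most reads and that with the smallest p are named, and for each pathway list the 2 genes of smallest p in each direction with a mean of at least 10 reads. The members, lists and tests were chosen with earlier results of these data known, among them those of Atf6 and Calr. Reads carry no molecular identifiers, so counts may include PCR copies.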

Additional observations from a re-analysis of the deposited data

Results flagged for a closer look

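Single libraries were checked for their distance from the others of their group in 50 sets of 4, of which chance alone sets apart about 1 in 20. Xbp1 had a gene sum of 111 CPM in control 3, against 64.2 to 66.9 CPM in the other control libraries. The same library stood apart at the main Xbp1 site, at 99.1 CPM against 47.9 to 52.0 CPM. That site held 94.7% of the Xbp1 reads, so it and the gene sum are not independent checks. Hspa5 had a gene sum of 118 CPM in control 2, against 187 to 199 CPM in the other control libraries.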

How the results depend on the processing

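Counts over the whole table, called at an adjusted p under 0.1, moved with the fit. Called sites were 1 in the reported fit, 4 with the block, 0 with the low-count filter, 10 by DESeq2 and 0 to 1 with single libraries left out. Called genes were 0, 34 with the block, 4 by DESeq2 and 0 to 1 with single libraries left out, and genes called for usage 1, 0 with the filter, 0 on the major strand alone and 0 to 10 with single libraries left out. With the block and without both libraries numbered 1, 2, 3 and 4, called sites were 4, 366, 27 and 17, called genes 65, 563, 8 and 0, and genes called for usage 0, 0, 4 and 0. At an unadjusted p of 0.05, a different threshold, 3 of the 54 ER gene sites passed in the reported fit and 4 with the block. The shares of all sites were 3.14% and 6.09%. With single libraries left out 2 to 4 passed, and 4, 5, 5 and 3 with the block and without number 1, 2, 3 and 4. They had 1 gene (Atf6) in the reported fit and with the block, 0 to 1 with single libraries left out, and 2, 2, 1 and 1 with the block and without number 1, 2, 3 and 4. The 1 gene for usage (Calr) became 0 to 1 with single libraries left out. Without number 2, the block called 563 of all 12255 genes. These held 1 of 26 genes of the chaperone list (Fkbp2, adjusted p = 0.082) and 1 of 16 of the degradation list (Vcp, 0.029). They also held 1 of 14 of the ATF4 target list (Phgdh, named after its values were seen).

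Log2 fold changes that changed sign, all far from the threshold, did so mostly when single libraries were left out. Ranges then were −0.32 to 0.00055 for Xbp1, −0.35 to 0.15 for Atf4, −0.55 to 0.021 for Hspa5, −0.48 to 0.13 for Hsp90b1 and −0.64 to 0.15 for Canx, −0.86 to 0.012 for Nfe2l2, −0.25 to 0.060 for Atf6b, −0.29 to 0.38 for Os9, −0.013 to 0.33 for Ddit4, −0.37 to 0.90 for Slc3a2 and −0.43 to 0.024 for the main Xbp1 site. The lower end for Os9 and Slc3a2 came without obesity 4; without control 1 they were −0.049 and −0.16, and Os9 was −0.066 without control 3. With the block, values of the other sign were 0.27 for Atf4 without number 3, 0.091 for Atf6b, −0.12 for Ddit4 and −0.081 for Slc3a2 without number 1, and −0.031 and −0.045 for Os9 without number 3 and 4. The causes were not tested. With all libraries the block changed no call for the 9 genes or their sites. Without number 1 it called the Atf6 gene sum (adjusted p = 0.073), among 65 genes called. Without number 2 it called the most 3′ Atf6 site (adjusted p = 0.059), among 366 sites called. Correlations centred by number were not run, since only 4 independent differences remain. Sites with under 10 reads a library limit what the usage of Atf6 can show.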
